A study of Mus musculus with 12 samples.

Results

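The core of hepatic insulin signaling was followed here through 9 genes, from the receptor to the transcription factors at the end of the pathway: *Insr*, *Irs1*, *Irs2*, *Pik3r1*, *Pdpk1*, *Akt1*, *Akt2*, *Foxo1* and *Foxo3*. They were found as the rows of the deposited expression table whose Ensembl identifier carries one of these mouse symbols, and all 9 were present among the table's 35275 genes. The rule that picks these genes reads no measured value, though it was set with earlier results of these data known. The libraries came from whole liver of 12 male mice in 4 groups of 3: wild-type (WT) mice and *Pctp*-/- mice, each fed either chow or a methionine- and choline-deficient (MCD) diet. *Pctp*-/- mice lack phosphatidylcholine transfer protein (PC-TP), a carrier of phosphatidylcholine between membranes, in the whole body and not in hepatocytes alone, and the MCD diet is a model of fatty liver with inflammation that also lowers body weight. Age, strain background, weeks on the diet and hours of fasting before collection were not given in the sources used here, and insulin and feeding both act on several of these genes.

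Insulin binds its receptor, a tyrosine kinase, which phosphorylates the insulin receptor substrates IRS1 and IRS2. These recruit phosphoinositide 3-kinase, whose lipid product brings PDK1 and AKT together at the plasma membrane, so that AKT is switched on. In hepatocytes AKT keeps FOXO transcription factors out of the nucleus, which lowers the genes of glucose production, while glycogen and fatty acid synthesis are raised. Much of this control is exerted through phosphorylation, which RNA levels do not measure.

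Expression was given as FPKM, fragment numbers corrected for gene length and library depth, so levels of different genes could be set side by side. Uniquely mapped reads per library numbered 30486576 to 55179468. The libraries of the 2 diets also differed in their quality measures, the uniquely mapped share of reads being 77.6 to 79.4% in chow and 85.7 to 87.5% in MCD libraries. The sources used here name no sequencing run or batch, and diet and this difference in quality cannot be told apart, whereas the genotypes were compared within a diet. In chow-fed WT mice *Pctp* itself had 2.04 ± 0.746 FPKM (SD, n = 3), in chow-fed *Pctp*-/- mice 0.420 ± 0.127, and the levels were 5.54 ± 2.18 and 0.259 ± 0.0909 on MCD, with no overlap of the genotypes on either diet. The hepatocyte markers *Alb*, *Ttr*, *Apoa1*, *Cps1*, *Hnf4a* and *Serpina1a* were detected in every library, with sums of 40090 to 73740 FPKM. *Pctp*-/- chow replicate 1 had the lowest mean correlation with its group mates, 0.980 against 0.984 to 0.991 in the other 11 libraries, and values without it are given beside *Insr*, *Irs1* and *Irs2*.

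Most of the core was lower on the MCD diet, and no core gene was called between the genotypes. In WT mice 7 of the 9 genes fell on MCD, by 0.41 to 1.90 on the log2 scale, and 0 rose. In *Pctp*-/- mice 5 of the 9 fell, and 0 rose. Over all 12466 genes tested, 22.5% were called lower and 34.5% higher on MCD in WT mice, and 24.4% lower and 26% higher in *Pctp*-/- mice. The test was limma on log2(FPKM + 1) with a Benjamini-Hochberg adjusted p under 0.05, and fold changes are on that scale, which understates those of low genes. The median log2 fold change of the 9 genes was -0.45 in WT and -0.30 in *Pctp*-/- mice, beside 0.11 and 0.04 over all genes tested. Quantile normalization moved the WT median of all genes tested to 0.01 and scaling by the median of ratios moved it to -0.001, and of all genes called in WT mice 60.5% were higher, against 51.9% and 50.1% under these scalings. The same 7 and 5 members were called lower under both scalings. *Pdk4* and other genes outside the core rose on the same diet, and their values are given further on.

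Markers of several cell types moved with the diet as well. Beside them, 34.5% of all genes tested rose and 22.5% fell on MCD in WT mice. In *Pctp*-/- mice 26% rose and 24.4% fell. Of 7 macrophage and Kupffer cell markers, 6 rose on MCD in WT and 3 in *Pctp*-/- mice, and their summed level was 49.5 to 85.4 FPKM in the WT chow libraries and 214 to 474 in the WT MCD libraries. In *Pctp*-/- mice the sums were 44.8 to 116 on chow and 233 to 312 on MCD. Of the 6 hepatocyte markers, 4 fell and 1 rose in WT and 3 fell and 1 rose in *Pctp*-/- mice. *Hnf4a* fell by 1.10 and 0.87 on the log2 scale, while *Alb* rose by 0.66 and 1.02. Stellate cell markers rose in 3 of 7 and 2 of 7 cases, and endothelial markers in 2 of 6 and 0 of 6. In cholangiocyte markers 1 of 4 tested rose in WT and 1 of 4 fell in *Pctp*-/- mice, and in lymphocyte markers 1 of 4 rose in each genotype. Of the adipocyte markers *Lep* was at 0 in every library, and *Cidec*, the only marker of this list tested and a lipid droplet gene that fatty hepatocytes also express, rose. In whole tissue fewer cells of a type and less RNA per cell cannot be told apart, and the part of these shifts in the members' values was not tested.

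**Figure D1:**
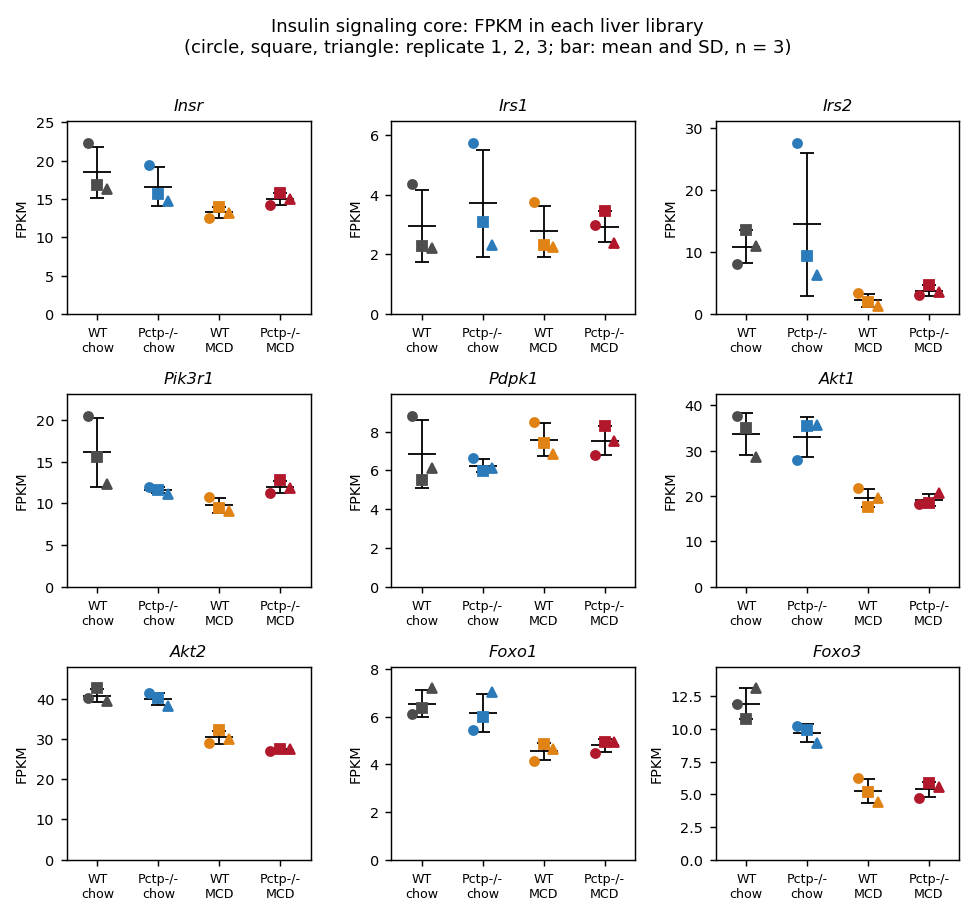
FPKM (vertical axis, from 0) of the 9 core genes in each of the 12 libraries, grouped by genotype and diet on the horizontal axis. Each symbol is a mouse, and the bar gives the mean with its SD (n = 3). *Irs2*, *Akt1*, *Akt2*, *Foxo1* and *Foxo3* lie lower in every MCD library than in every chow library, whereas *Irs1* and *Pdpk1* overlap in WT mice. How many of all genes tested separate by diet was not counted.

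The panels of FPKM by library show the separation gene by gene. Separation by diet was not counted over all genes tested, of which limma called 57% on MCD in WT and 50.3% in *Pctp*-/- mice. *Insr* (chromosome 8, 3122061 to 3279617, minus strand), the insulin receptor, was at 22.3, 16.8 and 16.3 FPKM in the WT chow libraries and at 19.5, 15.7 and 14.7 in the *Pctp*-/- chow libraries. Its MCD values were 12.5, 14.0 and 13.2 in WT and 14.3, 15.8 and 15.0 in *Pctp*-/- mice. Every WT MCD library was below every WT chow library, while in *Pctp*-/- mice the diets overlapped. *Insr* fell on MCD in WT mice by 0.44 on the log2 scale (SE 0.13, adjusted p = 0.0123). In *Pctp*-/- mice its log2 fold change was -0.13 (adjusted p = 0.428, 95% interval -0.41 to 0.15), and -0.016 without *Pctp*-/- chow replicate 1 (adjusted p = 0.925). The difference between the diet effects was 0.31 (adjusted p = 0.455), so the genotypes were not shown to differ.

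The receptor substrates behaved unlike each other. *Irs1* (chromosome 1, 82233101 to 82291416, minus strand) was low throughout, at 4.36, 2.28 and 2.22 FPKM in WT chow and 5.76, 3.10 and 2.33 in *Pctp*-/- chow livers. On MCD it was at 3.77, 2.33 and 2.26 in WT and 2.98, 3.45 and 2.39 in *Pctp*-/- livers. All 4 groups overlapped, and replicate 1 stood highest in 3 of them. The log2 fold change on MCD was -0.04 in WT (95% interval -0.62 to 0.54) and -0.21 in *Pctp*-/- mice (-0.79 to 0.37), and its sign turned without chow replicate 1 of the respective genotype, to 0.20 and 0.083, and in WT also without MCD replicate 2 or 3.

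*Irs2* (chromosome 8, 10984681 to 11008458, minus strand), the substrate whose transcript insulin itself represses, had the widest swing of the core. It was at 8.14, 13.5 and 11.0 FPKM in WT chow and 27.7, 9.42 and 6.29 in *Pctp*-/- chow livers. The MCD livers had 3.38, 1.98 and 1.35 in WT and 3.03, 4.74 and 3.49 in *Pctp*-/- livers. All 6 MCD libraries lay below all 6 chow libraries, and *Pctp*-/- chow replicate 1 was far above every other library. In WT mice *Irs2* fell by 1.90 on the log2 scale (SE 0.40, adjusted p = 0.0017) and by 1.46 in *Pctp*-/- mice (adjusted p = 0.00978). Without *Pctp*-/- chow replicate 1 the latter value was -0.89 (adjusted p = 0.018), still past the threshold. *Irs2* was the more abundant substrate on chow, at a median of 4.96 times *Irs1* in WT and 3.04 times in *Pctp*-/- livers. On MCD the ratio of *Irs2* to *Irs1* was 0.596 to 0.896 in WT livers, below 1 in all 3, and 1.02 to 1.46 in *Pctp*-/- livers.

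The sequence just before the start of these genes is shown because *Irs2*, which fell, and *Irs1*, which was not called, hold a like arrangement of letters there, and because *Igfbp1* and *G6pc*, the classical FOXO targets given below, took different directions on MCD in WT mice. Each window is the stretch before the RefSeq transcript start (GRCm38.p6, which is mm10), written along the gene's own strand, and for *Igfbp1* and *G6pc* it stops where the GENCODE first exon begins. Capitals mark TGTTTTG or its reverse complement CAAAACA, the core of the insulin response element that FOXO factors are known to bind, and CACGTG, the E-box, which reads the same on both strands. The RefSeq starts of *Irs1* and *Irs2* lie upstream of the GENCODE gene ends given above.
Irs1, chr1:82291440-82291689, minus strand: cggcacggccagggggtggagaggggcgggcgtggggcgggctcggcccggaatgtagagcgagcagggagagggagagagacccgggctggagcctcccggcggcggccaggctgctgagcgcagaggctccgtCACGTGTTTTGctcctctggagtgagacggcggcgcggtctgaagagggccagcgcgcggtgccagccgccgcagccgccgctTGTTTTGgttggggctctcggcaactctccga
Irs2, chr8:11008930-11009179, minus strand: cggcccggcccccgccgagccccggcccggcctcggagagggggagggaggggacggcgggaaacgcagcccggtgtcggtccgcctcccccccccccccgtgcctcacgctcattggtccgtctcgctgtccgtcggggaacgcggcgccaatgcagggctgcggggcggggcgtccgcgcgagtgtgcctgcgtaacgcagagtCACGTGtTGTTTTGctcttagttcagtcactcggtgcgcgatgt
Igfbp1, chr11:7197537-7197781, plus strand: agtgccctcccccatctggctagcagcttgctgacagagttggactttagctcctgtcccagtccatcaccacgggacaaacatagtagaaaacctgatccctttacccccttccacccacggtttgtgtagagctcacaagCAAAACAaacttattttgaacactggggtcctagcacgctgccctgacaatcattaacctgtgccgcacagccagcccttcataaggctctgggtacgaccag
G6pc, chr11:101367466-101367560, plus strand: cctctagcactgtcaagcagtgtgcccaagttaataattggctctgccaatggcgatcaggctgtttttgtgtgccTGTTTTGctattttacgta

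Counted as the distance of their first letter from the start, *Irs2* held the E-box at 44 and the insulin response core at 37 bases upstream, separated by a single base. *Irs1* held the E-box at 115 and the core at 111, where they overlap by 2 letters, and a further core at 32. *Igfbp1* held the core at 108 and *G6pc* at 174 bases upstream. All these distances are from the RefSeq start. For *G6pc* only 95 bases of the window precede the GENCODE first exon, so its core lies closer to the GENCODE start. Of all 32851 RefSeq promoter windows of 250 bases, 5.56% held the insulin response core, 6.02% the E-box and 0.295% both. Windows were listed for 8 of the 9 members, 14 in all, *Insr* having no entry. The *Irs1* and *Irs2* windows were the only 2 of the 14 with the core and the only 2 with the E-box, and the FOXO motif TGTTTAC or GTAAACA, present in 3.17% of all windows, occurred in 1 of the 14, that of *Akt1*. A match describes letters only and says nothing of binding, and sites further away were not searched.

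Phosphoinositide 3-kinase was represented by *Pik3r1* (chromosome 13, 101680563 to 101768217, minus strand), which encodes the p85-alpha regulatory subunit. It was at 20.5, 15.6 and 12.3 FPKM in WT chow and 11.9, 11.6 and 11.2 in *Pctp*-/- chow livers. Its MCD values were 10.8, 9.46 and 9.06 in WT and 11.2, 12.7 and 11.9 in *Pctp*-/- livers. The *Pctp*-/- values were nearly the same on the 2 diets, whereas the WT values were above them on chow and below them on MCD, with no overlap in either case. *Pik3r1* fell on MCD in WT by 0.65 on the log2 scale (SE 0.15, adjusted p = 0.00238), and its log2 fold change in *Pctp*-/- mice was 0.04 (adjusted p = 0.835, 95% interval -0.27 to 0.36).

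*Pdpk1* (chromosome 17, 24073680 to 24150924, minus strand), encoding PDK1, the kinase that phosphorylates AKT in its activation loop, was at 8.83, 5.52 and 6.14 FPKM in WT chow and 6.63, 5.99 and 6.11 in *Pctp*-/- chow livers. On MCD it was at 8.52, 7.40 and 6.84 in WT and 6.81, 8.30 and 7.50 in *Pctp*-/- livers. Every *Pctp*-/- MCD library was above every *Pctp*-/- chow library, while in WT mice the diets overlapped. *Pdpk1* was the only core gene with a positive fitted value in both genotypes, 0.15 in WT (adjusted p = 0.391) and 0.23 in *Pctp*-/- mice (adjusted p = 0.195). WT chow replicate 1, the highest of all 12 libraries, set the WT value, which was 0.33 without it (adjusted p = 0.0322).

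Both AKT kinases of the core fell in both genotypes. *Akt1* (chromosome 12, 112653821 to 112674884, minus strand), the isoform tied mainly to growth, was at 37.7, 34.9 and 28.6 FPKM in WT chow and 27.9, 35.4 and 35.6 in *Pctp*-/- chow livers. The MCD livers had 21.7, 17.5 and 19.5 in WT and 18.2, 18.6 and 20.7 in *Pctp*-/- livers. The 6 MCD libraries all lay below the 6 chow libraries, and the log2 fold change was -0.75 in each genotype (SE 0.13, adjusted p = 0.000365 in WT and 0.000474 in *Pctp*-/-).

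*Akt2* (chromosome 7, 27591552 to 27640826, plus strand), the isoform most tied to insulin action in liver, was the most abundant core gene in every library. It was at 40.3, 42.5 and 39.5 FPKM in WT chow and 41.3, 40.2 and 38.2 in *Pctp*-/- chow livers. Its MCD values were 29.0, 32.2 and 29.9 in WT and 27.1, 27.5 and 27.4 in *Pctp*-/- livers. Spread within groups was small, the diets did not overlap, and in WT mice *Akt2* fell by 0.41 on the log2 scale (SE 0.08, adjusted p = 0.000642) and by 0.53 in *Pctp*-/- mice (adjusted p = 0.000135). The ratio of *Akt2* to *Akt1* had a median of 1.22 and 1.14 on chow and of 1.54 and 1.48 on MCD in WT and *Pctp*-/- livers.

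The FOXO factors, which AKT holds in check, fell as well. *Foxo1* (chromosome 3, 52268336 to 52353221, plus strand), the main FOXO of hepatic glucose production, was at 6.11, 6.38 and 7.20 FPKM in WT chow and 5.43, 6.002 and 7.04 in *Pctp*-/- chow livers. On MCD it was at 4.13, 4.85 and 4.67 in WT and 4.50, 4.96 and 4.93 in *Pctp*-/- livers. No MCD library reached a chow library. In WT mice *Foxo1* fell by 0.45 on the log2 scale (SE 0.11, adjusted p = 0.00385) and by 0.30 in *Pctp*-/- mice (adjusted p = 0.0362). The *Pctp*-/- call was lost without *Pctp*-/- chow replicate 2 or 3 or any of the *Pctp*-/- MCD libraries, and in 2 other alternatives, with values of -0.21 to -0.32 and adjusted p of 0.0512 to 0.144.

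*Foxo3* (chromosome 10, 42181841 to 42276755, minus strand), a second FOXO that shares targets with *Foxo1*, was at 11.9, 10.8 and 13.1 FPKM in WT chow and 10.3, 9.93 and 8.94 in *Pctp*-/- chow livers. The MCD livers had 6.26, 5.14 and 4.38 in WT and 4.75, 5.85 and 5.55 in *Pctp*-/- livers. The diets did not overlap, and in WT mice *Foxo3* fell by 1.05 on the log2 scale (SE 0.13, adjusted p = 2.45e-05) and by 0.75 in *Pctp*-/- mice (adjusted p = 0.000391). The 2 FOXO levels came together on MCD, with a median ratio of *Foxo3* to *Foxo1* of 1.82 and 1.65 on chow and of 1.06 and 1.12 on MCD in WT and *Pctp*-/- livers.

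**Figure D2:**
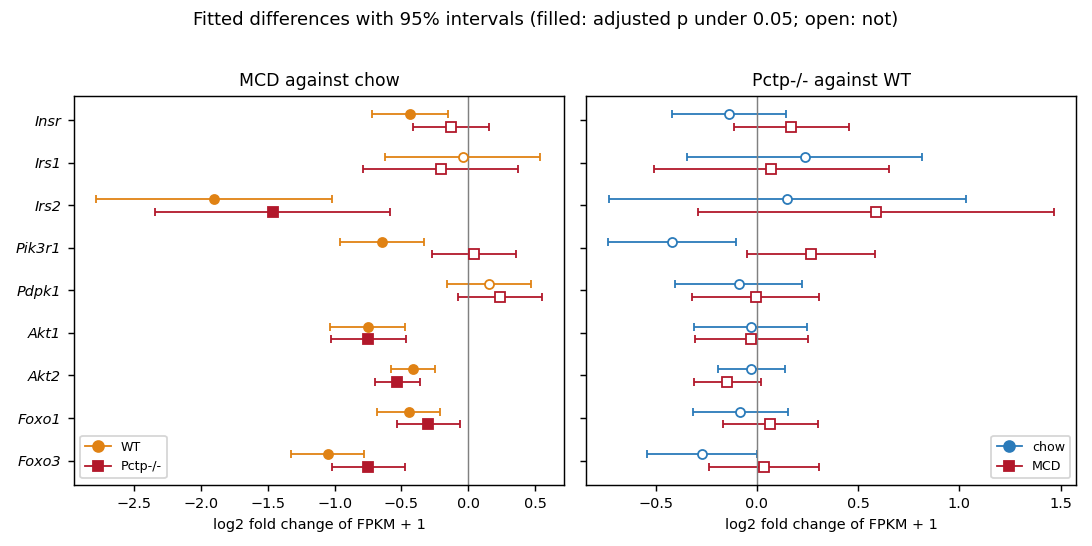
Fitted log2 fold change of FPKM + 1 (horizontal axis) with its 95% interval for each core gene (vertical axis), for MCD against chow in each genotype at left and for *Pctp*-/- against WT on each diet at right. Filled symbols passed the adjusted threshold, as 7 genes did in WT and 5 in *Pctp*-/- mice at left and 0 at right. Of all genes tested, 57% in WT and 50.3% in *Pctp*-/- mice passed it for diet. For genotype 0.136% passed it on chow and 0.818% on MCD.

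The comparison of genotypes asks whether whole-body loss of PC-TP is accompanied by altered expression of the pathway that carries the insulin signal. On chow 0 of the 9 core genes were called by limma, against 0.136% of all genes tested, and 1 had an unadjusted p under 0.05, as 6.98% of all genes did. Among MCD-fed mice 0 were called, against 0.818% of all genes, and an unadjusted p under 0.05 was found for 0, against 16.3% of all genes. The intervals were narrow for *Akt2*, at -0.20 to 0.14 on chow and -0.31 to 0.02 on MCD on the log2 scale, and for *Foxo1*, at -0.32 to 0.15 and -0.17 to 0.30. For *Irs2* they were wide, at -0.73 to 1.03 on chow and -0.29 to 1.47 on MCD. Its fitted value on chow, 0.15, was -0.42 without *Pctp*-/- chow replicate 1. The plot of fitted differences shows these widths for each gene.

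Some groups nonetheless did not overlap. On chow *Foxo3* and *Pik3r1* were lower in every *Pctp*-/- than in every WT library, as 10.6% of all genes tested separated in one direction or the other. On MCD *Insr* and *Pik3r1* were higher and *Akt2* lower in every *Pctp*-/- library, where 26.6% of all genes separated. The *Foxo3* log2 difference on chow was -0.27 (adjusted p = 0.714), that of *Insr* on MCD was 0.17 (adjusted p = 0.549) and that of *Akt2* on MCD was -0.15 (adjusted p = 0.372).

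*Pik3r1* separated in opposite directions on the 2 diets, a pattern seen in 2.03% of all genes tested. Its *Pctp*-/- minus WT difference was -0.42 on chow (unadjusted p = 0.0134, adjusted p = 0.47) and 0.27 on MCD (adjusted p = 0.391). The difference of the diet effects was 0.69 (95% interval 0.24 to 1.13, unadjusted p = 0.00568, adjusted p = 0.157). That comparison called 0 of the 9 core genes and 0.0963% of all genes, and *Pik3r1* was the only core gene with an unadjusted p under 0.05, a level that 15.1% of all genes reached. *Irs2* had a difference of the diet effects of 0.44 (adjusted p = 0.757), which ranged from 0.022 to 1.01 with each library left out in turn.

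Beyond the core, 83 genes of the pathway were listed by role, and 71 of them were expressed well enough to be tested. On MCD 16 rose and 25 fell in WT, and 12 rose and 25 fell in *Pctp*-/- mice, 57.7% and 52.1% of the 71 beside 57% and 50.3% of all genes tested. Without chow replicate 1 of both genotypes these counts were 21 and 25 in WT and 13 and 26 in *Pctp*-/- mice. In the genotype comparisons on chow and on MCD and in the difference of diet effects, 0 of the 71 were called by limma, while 7, 9 and 12 had an unadjusted p under 0.05. These are 9.86%, 12.7% and 16.9% of the 71, beside 6.98%, 16.3% and 15.1% of all genes tested.

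**Figure D3:**
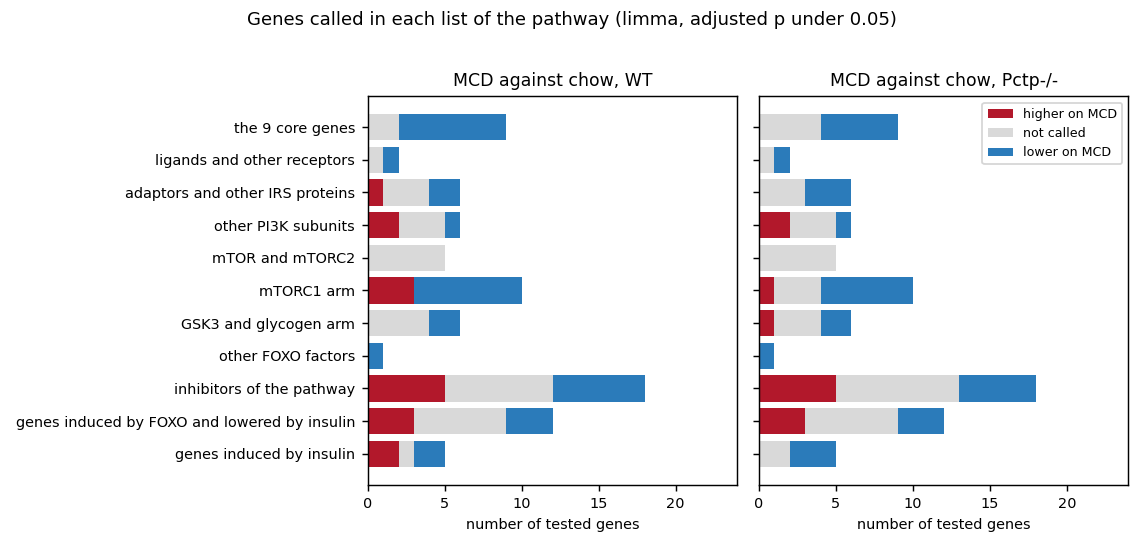
Number of tested genes (horizontal axis) of the core and of each other list of the pathway (vertical axis) called higher, lower or neither on MCD against chow, in WT mice at left and *Pctp*-/- mice at right. The core has 7 and 5 genes lower and 0 higher. Of all genes tested, 22.5% and 24.4% were called lower and 34.5% and 26% higher. Calls in both directions are held by 6 of the 10 other lists in WT and 5 of the 10 in *Pctp*-/- mice. Some lists hold too few calls to show both.

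Among ligands and other receptors, *Ins1* was at 0 in every library and *Igf1*, a hormone that the liver secretes under growth hormone and nutrition, fell in WT mice by 0.94 on the log2 scale (adjusted p = 6.76e-05) and by 0.41 in *Pctp*-/- mice (adjusted p = 0.0182). The *Pctp*-/- call for *Igf1* was lost without *Pctp*-/- chow replicate 2 or 3 or MCD replicate 1 or 3. Of the 6 adaptors tested, *Sh2b1*, which enhances receptor signaling, fell by 0.87 and 0.83, and the docking protein *Gab1* fell by 0.71 and 0.45. *Sh2b2*, a low gene at 0.336 to 2.32 FPKM, fell in *Pctp*-/- mice by 0.89, with -0.45 in WT (adjusted p = 0.0738). In WT it was called lower in 3 of 21 alternatives. These were quantile normalization (-0.56), median-of-ratios scaling (-0.51) and the fit without WT chow replicate 2 (-0.62). *Grb2*, which leads to the Ras pathway, rose by 0.39 in WT (adjusted p = 0.00303), with 0.13 in *Pctp*-/- mice (adjusted p = 0.262).

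Other genes of the phosphoinositide 3-kinase family did not share one direction. *Pik3r2*, which encodes the p85-beta regulatory subunit, fell by 0.84 in WT (adjusted p = 4.98e-05) and by 1.03 in *Pctp*-/- mice (adjusted p = 1.42e-05). In *Pctp*-/- mice *Pik3r2* was thus called lower and *Pik3r1* was not called. Of catalytic genes *Pik3c2a* rose in both genotypes, by 0.63 and 0.47, *Pik3cb* rose in WT by 0.49, and *Pik3ca* rose in *Pctp*-/- mice by 0.29. The *Pik3c2a* call in *Pctp*-/- mice was lost without MCD replicate 1 or 2, and the *Pik3ca* call was lost when any of 8 libraries was left out. The mTORC2 complex adds the second activating phosphate to AKT. In the list of mTOR and mTORC2, 0 of 5 genes were called by limma on MCD in either genotype, *Mtor* and *Rictor* among them. An unadjusted p under 0.05 was found for 1 in WT and 2 in *Pctp*-/- mice. Over all genes tested, 57% and 50.3% were called, and 61.6% and 56.5% had an unadjusted p under 0.05.

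In the mTORC1 arm, through which AKT promotes protein synthesis, 3 of 10 genes rose and 7 fell in WT, and 1 rose and 6 fell in *Pctp*-/- mice, where 57% and 50.3% of all genes tested were called in either direction. The WT call of the S6 kinase *Rps6kb1* (0.35, adjusted p = 0.0381) was lost without WT chow replicate 2 or 3, WT MCD replicate 1 or 2 or *Pctp*-/- MCD replicate 1. *Tsc2*, the brake on mTORC1 that AKT inactivates, fell by 1.08 and 0.89, and *Akt1s1*, another AKT-inactivated inhibitor, fell by 0.93 and 1.44. *Rheb*, the activator that *Tsc2* restrains, rose by 0.82 and 0.53. *Eif4ebp2*, a repressor of translation, fell by 1.07 in WT, with -0.79 in *Pctp*-/- mice (adjusted p = 0.012). The latter call was lost without *Pctp*-/- MCD replicate 1. *Eif4ebp1* rose in WT by 0.44, a call lost without WT MCD replicate 1 (0.28, adjusted p = 0.0634).

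In the glycogen arm *Ppp1r3b*, a subunit that directs phosphatase to glycogen, fell by 1.11 and 1.39, and *Gys1* fell by 0.60 and 0.44. *Gys2*, the liver glycogen synthase, rose in *Pctp*-/- mice by 0.85 (adjusted p = 0.0091), with -0.29 in WT (adjusted p = 0.309) and a difference of 1.13 (adjusted p = 0.148). *Foxo4*, the only other FOXO tested, fell by 0.48 and 0.46. The *Pctp*-/- calls of *Gys1* and *Foxo4* were each lost without 1 library, chow replicate 2 and MCD replicate 1.

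Of 18 inhibitors of the pathway, 5 rose and 6 fell in WT, and 5 rose and 5 fell in *Pctp*-/- mice. The calls made up 61.1% and 55.6% of the 18, beside 57% and 50.3% of all genes tested. *Trib3*, an AKT-binding pseudokinase induced by amino acid stress, was at 2.66, 5.16 and 8.72 FPKM in WT chow and 3.51, 3.16 and 3.21 in *Pctp*-/- chow livers. Its MCD values were 21.9, 33.0 and 21.9 in WT and 11.2, 19.7 and 10.7 in *Pctp*-/- livers, above every chow library. *Trib3* rose by 2.12 in WT (adjusted p = 0.000121) and by 1.74 in *Pctp*-/- mice (adjusted p = 0.000607). *Ppp2ca*, the catalytic subunit of a phosphatase that acts on AKT, rose by 0.84 and 0.63, and *Enpp1*, which impedes the receptor, rose by 0.53 and 0.86. *Socs3*, an inhibitor of IRS proteins induced by cytokines, fell in WT by 1.48 (adjusted p = 0.000145), with -0.44 in *Pctp*-/- mice (adjusted p = 0.116). *Trib1* fell in WT by 1.39, with -0.69 in *Pctp*-/- mice (adjusted p = 0.0748). For neither gene were the diet effects shown to differ between the genotypes. The differences were 1.04 for *Socs3* and 0.69 for *Trib1* (adjusted p = 0.16 and 0.472 by limma). The receptor phosphatase *Ptprf* and the AKT phosphatase *Phlpp1* fell by 0.94 to 1.06 in the 2 genotypes.

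Target genes at the end of the pathway moved in both directions. Of 12 genes known to be induced by FOXO and lowered by insulin, 3 rose and 3 fell in each genotype. These calls were 50% of the 12, beside 57% of all genes tested in WT and 50.3% in *Pctp*-/- mice. *G6pc*, the last step of glucose release, was at 146, 279 and 298 FPKM in WT chow and 661, 468 and 448 in *Pctp*-/- chow livers. On MCD it was at 25.5, 44.7 and 23.2 in WT and 32.7, 248 and 15.8 in *Pctp*-/- livers, with MCD replicate 2 of the *Pctp*-/- group apart from its mates. *G6pc* fell by 2.90 (adjusted p = 0.00461) and 3.32 (adjusted p = 0.00244), and *Pck1*, the committed step of gluconeogenesis, fell by 1.50 and 1.47. The *Pck1* call in *Pctp*-/- mice was lost without MCD replicate 1 or 3.

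*Pdk4*, which spares glucose by closing pyruvate dehydrogenase, rose by 3.43 in WT (adjusted p = 9.09e-06) and by 2.31 in *Pctp*-/- mice (adjusted p = 0.000224), and the coactivator *Ppargc1a* rose by 1.04 and 1.35. *Igfbp1*, a secreted binding protein that insulin represses, was at 21.3, 112 and 113 FPKM in WT chow and 326, 198 and 131 in *Pctp*-/- chow livers. The MCD livers had 244, 313 and 145 in WT and 93.5, 237 and 77.5 in *Pctp*-/- livers. Its WT MCD libraries lay above the WT chow libraries, and the *Pctp*-/- groups overlapped. *Igfbp1* rose in WT by 1.76 (adjusted p = 0.0257), a call that was lost without WT chow replicate 1 (0.98, adjusted p = 0.108) or WT MCD replicate 1 or 2. Its log2 fold change in *Pctp*-/- mice was -0.76 (adjusted p = 0.319), and the difference was -2.52 (adjusted p = 0.196).

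**Figure D4:**
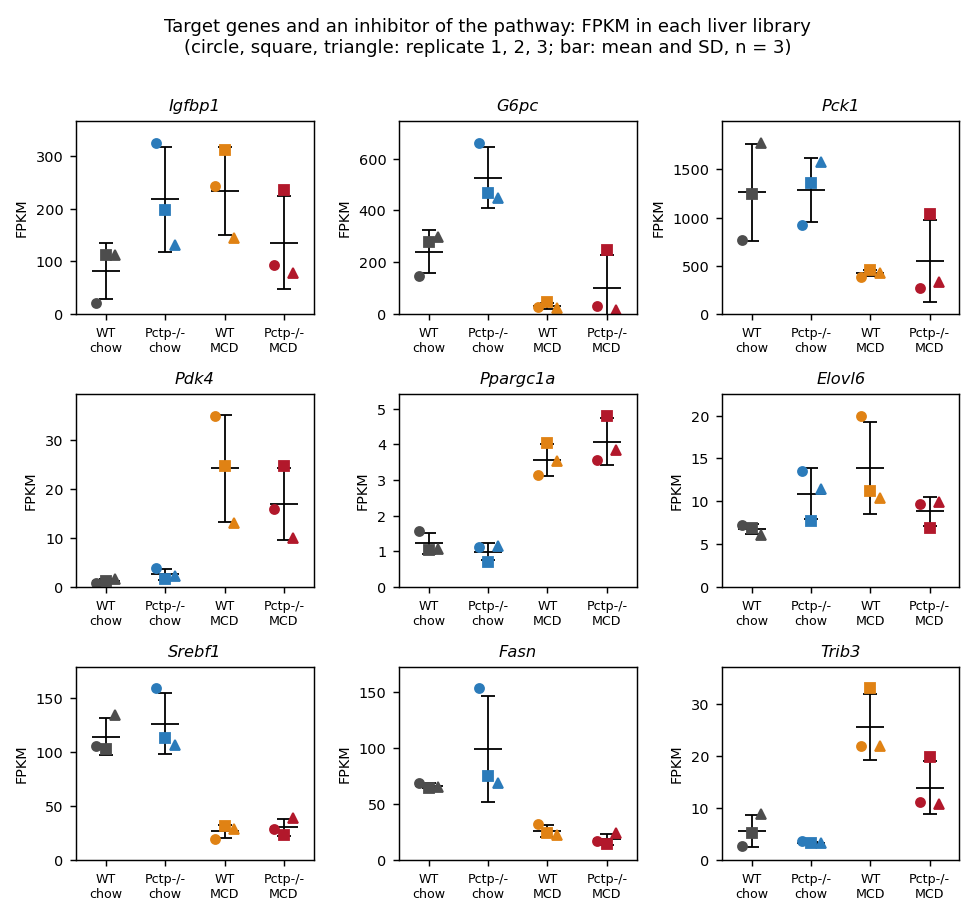
FPKM (vertical axis, from 0) of 8 target genes of the pathway and of its inhibitor *Trib3* in each library, by genotype and diet, with mean and SD (n = 3). *G6pc*, *Pck1*, *Srebf1* and *Fasn* fell on MCD in both genotypes, while *Pdk4*, *Ppargc1a* and *Trib3* rose in both.

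Of 5 tested genes that insulin induces, 2 rose and 2 fell in WT, and 0 rose and 3 fell in *Pctp*-/- mice. That is 80% and 60% of the 5, beside 57% and 50.3% of all genes tested. *Srebf1*, the regulator of fatty acid synthesis, fell by 2.10 (adjusted p = 8.34e-06) and 2.04 (adjusted p = 1.37e-05), and its target *Fasn* fell by 1.34 and 2.32. *Elovl6* and *Acaca*, also of fatty acid synthesis, rose in WT by 0.89 and 0.59. *Elovl6* was at 7.20, 6.87 and 6.05 FPKM in WT chow and 13.5, 7.71 and 11.5 in *Pctp*-/- chow livers. The MCD livers had 20.01, 11.2 and 10.4 in WT and 9.66, 6.91 and 9.89 in *Pctp*-/- livers. Its log2 fold change in *Pctp*-/- mice, where the diets overlapped, was -0.26 (adjusted p = 0.379), and the difference was -1.15 (adjusted p = 0.148). The panels of target genes by library show that the scatter within the *Pctp*-/- MCD group of *G6pc*, *Pck1* and *Igfbp1* lay in replicate 2, the highest of its group for each.

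The genes whose levels ran most like each core gene over the 12 libraries were found as a description, since points of 1 diet share its mapping and quality measures. *Foxo1* ran closest to *N4bp2l1* (Pearson r = 0.995 on the log2 scale), *Akt1* to *Mta1* (0.988), *Foxo3* to *Marveld1* (0.988) and *Akt2* to *Tmbim6* (0.986). *Insr* ran closest to *March8* (0.949), *Irs2* to *Atg7* (0.946), *Pdpk1* to *Slc4a4* (0.942), *Irs1* to *Pcyox1* (0.936) and *Pik3r1* to *Pgap1* (0.931). Among the core itself, the spans of 7 genes, introns included, overlap another annotated gene, and *Akt2* and *Foxo3* overlap none. For *Insr*, *Irs1*, *Irs2*, *Pdpk1* and *Foxo1* a gene is annotated on the opposite strand, such as *9530052E02Rik* for *Irs2*. The use of strand in counting was not given in the sources used here. If only exons were counted, which was not stated either, only reads in bases shared by exons of both genes could be mixed. Overlap of exons was not checked.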

How the data were processed

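Total RNA of whole liver was sequenced from 3 mice in each group. For each gene and library the authors deposited an FPKM value, on build mm10 according to the processing notes, and a table of read totals and percentages (in units other than expression) that gave only the depth and quality measures. The aligner, counter and annotation were not given in the sources used here, and no counts per gene were used. Symbols, positions and first exons came from GENCODE M21 (GRCm38), which named 34490 of 35275 identifiers. No pair of libraries held identical values. Genes whose mean FPKM reached 0.5 were tested with limma 3.58.1 in R 4.3.3 on log2(FPKM + 1), with 1 mean per group over all 12 libraries, a mean-variance trend, two-sided tests and Benjamini-Hochberg adjustment over 12466 genes. The count-based Wald test of the study was replaced because FPKM values are not counts. The script was tested on simulated data. Genotypes were contrasted within each diet, diets within each genotype, and the 2 diet effects with each other. Members and lists were chosen with earlier results of these data known, and some pathway genes are not reported here. All members were named, with at most 2 genes rising and 2 falling most per list and diet contrast, and the 3 genes most like each member by Pearson r, of which the first is printed. *Ins1*, *Mtor*, *Rictor*, *Rps6kb1*, *Hnf4a*, *Alb*, *Lep* and *Cidec* were named after their values were seen. Alternatives were the pseudocount (0.1), the filter, the scaling, fits of 6 libraries, limma's trend options, leaving out libraries and a replicate block. Promoter windows came from RefSeq GRCm38.p6. Figures were drawn with matplotlib 3.10.9.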

Additional observations from a re-analysis of the deposited data

Results flagged for a closer look

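*Pik3r1* drew attention because every *Pctp*-/- library was below every WT library on chow and above every WT library on MCD. The *Pctp*-/- minus WT difference was greater on MCD than on chow by 0.69 on the log2 scale (limma, adjusted p = 0.157 over all genes tested), and this pattern of opposite separation was found in 2.03% of all genes tested. With each library left out in turn the value ranged from 0.51 to 0.85, with adjusted p of 0.123 to 0.345. It was 0.53 (adjusted p = 0.093) without chow replicate 1 of both genotypes, an alternative chosen after seeing the data.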

How the results depend on the processing

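Members called lower on MCD stayed at 7 in WT in all 22 alternatives and at 4 or 5 in *Pctp*-/- mice. *Pdpk1* was called higher in WT without WT chow replicate 1 or without chow replicate 1 of both genotypes (0.33, adjusted p = 0.0279). No member was called between genotypes. Of 41 and 37 other pathway calls in WT and *Pctp*-/- mice, 36 and 27 held in every alternative. Of other pathway genes, 1 was called on chow without WT chow replicate 3 (*Socs3*), so the range was 0 to 1, 1 on MCD after quantile normalization (*Igf1*) and 1 without WT MCD replicate 3 (*Eif4ebp1*), a range of 0 to 1, and 2 in the difference without both chow libraries numbered 1 (*Gys2* and *Akt1s1*).

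Uncalled values changed sign, and the cause was not tested. With each library left out, *Akt1* ranged from -0.14 to 0.081 for genotype on chow, -0.1 to 0.046 on MCD and -0.11 to 0.11 in the difference. *Akt2* ranged from -0.054 to 0.0013 on chow, *Foxo3* from -0.069 to 0.15 on MCD and *Insr* from -0.25 to 3.4e-05 on chow. *Irs1* ranged from -0.055 to 0.48 for genotype on chow, -0.025 to 0.25 on MCD, -0.22 to 0.2 for diet in WT, -0.43 to 0.083 in *Pctp*-/- and -0.4 to 0.13 in the difference. *Irs2* ranged from -0.42 to 0.57 on chow. *Pdpk1* ranged from -0.21 to 0.085 on chow, -0.071 to 0.07 on MCD and -0.092 to 0.2 in the difference, and *Pik3r1* from -0.0032 to 0.082 for diet in *Pctp*-/-. Without both chow libraries numbered 1, *Irs1* was 0.2 and 0.083 for diet, *Irs2* -0.6 for genotype on chow, *Pdpk1* 0.047 on chow and -0.054 in the difference, and *Akt1* 0.16 and -0.19. Quantile normalization gave *Pdpk1* 0.1 and *Akt1* 0.065 on MCD and *Akt2* 0.028 in the difference. Median-of-ratios scaling gave *Pdpk1* 0.09 and *Akt1* 0.077 on MCD and *Pik3r1* -0.0012 for diet in *Pctp*-/-.

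Replicate numbers number different mice, and deviations of same-numbered libraries correlated by -0.0972 to 0.225. Whether same-numbered libraries share a factor was not tested. With replicate number as block, 7 and 5 members and 41 and 39 other pathway genes were called on MCD in WT and *Pctp*-/- mice. Of all 12466 genes tested, 4357 were then called higher and 2845 lower on MCD in WT mice, against 4300 and 2810 without the block. In *Pctp*-/- mice 3351 were called higher and 3079 lower, against 3236 and 3040. Over all genes tested, the difference of diet effects then had 29 higher and 30 lower calls, against 5 and 7 without the block. Genotype on chow had 12 higher and 20 lower calls, against 7 and 10. Groups of 3 mice limited what could be detected, most of all for *Irs1* and *Irs2*, and the depth of low genes was not known per gene.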
